A study of Mus musculus with 12 samples.

Results

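Mouse hematopoietic stem and progenitor cells (HSPCs), freed of lineage-positive cells, of the genotype labelled Smc3 were compared with those of the genotype labelled WT, across every gene with reads in the comparison that the authors deposited. Of 24016 genes in the series, 19467 had a mean above 0 in these libraries. Where a gene had several transcripts, it is represented by the one whose mean was highest when averaged over the 3 deposited comparisons. The comparison rests on 6 of the 12 libraries of the series, 3 labelled Smc3 and 3 labelled WT.

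Smc3 and WT mice alike were C57BL/6 animals that received 7 injections of 1 mg/mL pIpC, on alternate days, starting at 4 to 6 weeks of age, and progenitors were collected 4 to 6 weeks after treatment by lysing red cells and removing lineage-positive cells. pIpC is a double-stranded RNA mimic that induces interferon and is commonly used to switch on an interferon-inducible Cre, but the labels name no Cre driver, allele or sex, so the nature of the Smc3 lesion is known here by its label alone. Whether each library is a separate mouse is not given in the labels, so p-values measure the spread between these libraries, which may be technical. The other groups of the series, Npm1 and Double, are given only beside the Smc3 values.

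SMC3 is a core subunit of cohesin, a ring-shaped complex that entraps DNA, holds sister chromatids together until anaphase and, by extruding chromatin loops up to CTCF-bound boundaries, brings enhancers near promoters. Cohesin genes are recurrently mutated in myeloid malignancies, and lowered cohesin dosage is known to shift the self-renewal and lineage choice of hematopoietic progenitors. A lineage-depleted preparation is a mixture of stem cells, multipotent progenitors and committed precursors of the granulocytic, basophil and mast cell, erythroid, megakaryocytic and lymphoid lineages. In such bulk RNA, fewer cells of a type and less RNA per cell cannot be told apart.

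The reconstructed depth was 49.9, 24.9 and 19.2 M reads in Smc3 a, b and c and 21.3, 14.5 and 10.5 M reads in WT a, b and c, where letters follow the order of the size factors and name a library only. The mean size factor of the Smc3 libraries was 2.15 times that of the WT libraries. Log2 fold changes (written ± standard error, SE) and adjusted p-values are those of the authors' DESeq2 fit. Its fold changes are moderated toward 0, so the ratio of 2 group means can be larger than the fold change beside it. A gene was called, and is said to have risen or fallen, at an adjusted p under 0.05. Normalized counts per library were reconstructed from the deposited values for 12616 genes, 5912 of them with an adjusted p. For the other genes, the mean normalized count of each group is the one implied by the deposited mean and by the fold change with its moderation undone, so it has no error of its own.

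No library was set aside, but several stood apart. Among 5422 reconstructed genes with a mean of at least 20, Smc3 c was at least 2-fold above every other library for 59 genes, Smc3 a for 30, Smc3 b for 2, WT c for 42 and WT a and b for 0. The normalized counts of Y-linked genes summed to 3991 in Smc3 a, 3026 in Smc3 b and 1.04 in Smc3 c, against 0 in each WT library. Smc3 c thus resembled the WT libraries in this respect and Smc3 a and b did not. X-linked genes that escape silencing were called lower in 3 of 5 cases, among them Eif2s3x (log2 fold change -0.63 ± 0.13, adjusted p = 9.28e-05, per the authors' deposited table), a translation initiation factor subunit. The part of sex was not tested for genes without reads per library, and for the others a fit by limma with a sex term is given beside several lists; in that fit the genotype difference rests on Smc3 c against WT.

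The Smc3 transcript itself was not called. Its implied mean was 9335 in Smc3 against 9466 in WT, with a log2 fold change of -0.02 ± 0.11, adjusted p = 0.933, per the authors' deposited table. None of 21 tested genes of the cohesin ring, its loader and its release factors was called by the authors' DESeq2 fit (1 had an unadjusted p under 0.05), and their median log2 fold change was -0.05. Rad21, the kleisin that closes the ring, had -0.06 (adjusted p = 0.718) and Nipbl, the loader, had -0.01 (adjusted p = 0.961) per the authors' deposited table. Transcript level thus gives no check of the genotype label, since the labels do not say what the lesion does to the transcript.

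Of 12750 genes with an adjusted p, 1854 (14.5%) were called, 1012 higher in Smc3 (7.94%) and 842 lower (6.6%). The higher genes moved further, with a median log2 fold change of 0.59, while the lower genes had a median of -0.36. A log2 fold change of at least 1 in size was reached by 41 higher and 8 lower genes. All 3 Smc3 libraries lay above all 3 WT libraries for 587 of the 610 higher genes with reconstructed reads (10.3% of such genes tested), and below them for 142 of the 144 lower ones (2.44%). Among all 5912 such genes, 23.9% lay fully above and 9.42% fully below, whether called or not. Applied to the same reconstructed reads, limma called 79 genes (53 higher, 26 lower) with all 6 libraries, 1014 (838 higher, 176 lower) with a sex term, 740 without Smc3 c, 114 without Smc3 a and 110 without Smc3 b. It called 0 without any single WT library (643, 891 and 1158 at an unadjusted p under 0.05 without WT a, b and c), so limma's adjusted p-values rest on each WT library. All 754 genes called by the authors kept their sign in each of these fits. This is no separate check, since they were called on these same libraries and the groups overlapped in few of them.

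Direction went with abundance. Higher genes had a median mean count of 406 and lower genes one of 1898, where all tested genes had 722. The share called higher was 4.09% among genes with a mean under 50, 12.1% at 50 to 200, 11.3% at 200 to 1000, 5.37% at 1000 to 5000 and 2.5% at 5000 and over. The share called lower was 0.779%, 2.46%, 3.86%, 9.92% and 23.2% in the same classes. The median log2 fold change over all genes of a class was 0.19 for means of 50 to 200 and -0.18 for means of 5000 and over. Genes with a mean of 20 to 50 had medians of 0.21, 0.24 and 0.23 in Smc3 a, b and c, against -0.05, -0.06 and 0.11 in WT a, b and c, relative to the WT mean on the log2 scale. The 3 Smc3 libraries lay above each WT library in this class, WT c being the highest of WT. The part of sequencing depth in this pattern was not tested. For many lists the share of the abundance class that holds the list's median mean count is given as well. List counts given without a share stand beside 7.94% higher and 6.6% lower over all genes.

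**Figure D1:**
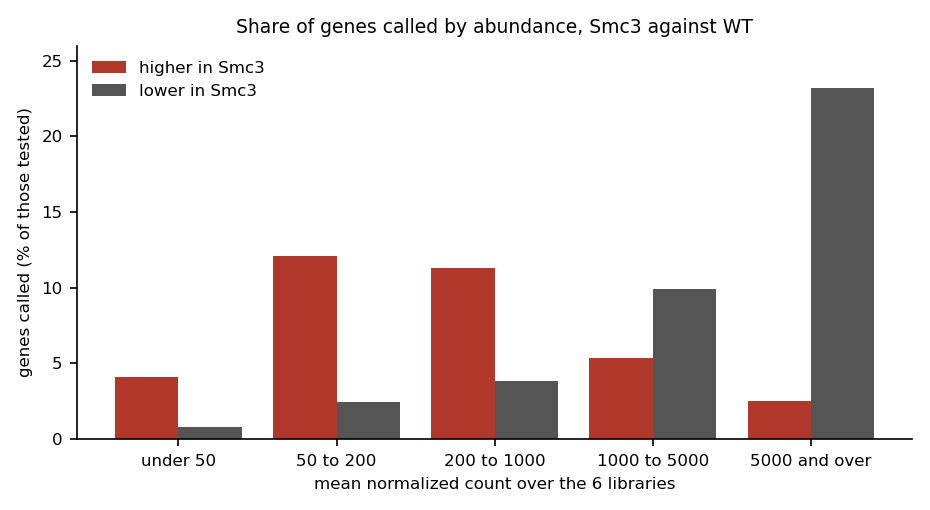
Share of tested genes called higher (red, left bar) and lower (grey, right bar) in Smc3 than in WT, in percent, by classes of mean normalized count over the 6 libraries. The share called lower climbs to 23.2% in the most abundant class while the share called higher falls to 2.5%.

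Genes of mast cells and basophils had the highest shares called higher of the 92 gene lists described, 68.2% of receptors and factors and 66.7% of mediators, where 7.94% of all genes were. Of 12 tested genes for mediators and granule proteins, 8 were higher and 0 lower, with a median log2 fold change of 0.72. Of 22 receptor and transcription factor genes 15 were higher and 0 lower, with a median of 0.58. The lists share higher genes with others below, so their counts are not separate. Ctsg, Serpinb1a and Cebpa are also primary granule genes and Csf1 a cytokine gene. Csf2rb, Csf2rb2 and Il3ra are also cytokine receptors, and Adora3 an adenosine receptor. Cpa3, the carboxypeptidase of mast cell granules, had an implied mean of 3633 in Smc3 against 1233 in WT (log2 fold change 1.33 ± 0.17, adjusted p = 1.84e-10, per the authors' deposited table). The basophil proteases Prss34 (21482 in Smc3 against 6529 in WT) and Mcpt8 (9286 in Smc3 against 2783 in WT) had log2 fold changes of 1.02 ± 0.24, adjusted p = 0.00118, and 0.91 ± 0.25, adjusted p = 0.00464, per the authors' deposited table. Hdc, which makes histamine, had an implied mean of 2215 in Smc3 against 1055 in WT (log2 fold change 0.93 ± 0.17, adjusted p = 7.65e-06, per the authors' deposited table). Prss34 and Mcpt8 belong to families of similar proteases, and reads shared between family members could not be resolved here. Il4, the basophil cytokine, had 36.1, 32.9 and 24 in the Smc3 libraries, against 15.9, 13.1 and 8.07 in the WT libraries. The Smc3 libraries lay above the WT libraries, but the change was not called (adjusted p = 0.0544 per the authors' deposited table).

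The high-affinity IgE receptor, which triggers degranulation of these cells, was higher in all 3 of its chains. Fcer1a had an implied mean of 1028 in Smc3 against 441 in WT, Ms4a2, its beta chain, 3077 in Smc3 against 959 in WT, and Fcer1g, its gamma chain, 1354 in Smc3 against 755 in WT. Their log2 fold changes were 0.98 ± 0.20, adjusted p = 7.33e-05, 0.96 ± 0.24, adjusted p = 0.00263, and 0.70 ± 0.18, adjusted p = 0.00350, per the authors' deposited table. Cd200r3, an activating receptor of basophils and mast cells, had normalized counts of 1014, 405 and 342 in the Smc3 libraries, against 138, 143 and 139 in the WT libraries. Its level in Smc3 a stood well above that in Smc3 b and c, and all 3 lay above WT, with means of 587 ± 371 in Smc3 and 140.0 ± 2.34 in WT (SD, n = 3 each) and a log2 fold change of 1.36 ± 0.23, adjusted p = 1.85e-06, per the authors' deposited table. Cd200r1, an inhibitory relative, had 448, 226 and 318 in the Smc3 libraries, against 114, 109 and 111 in the WT libraries, and the groups did not overlap. Csf2rb, the beta chain shared by the receptors for IL-3, IL-5 and GM-CSF, rose by 1.03 (adjusted p = 2.92e-10, per the authors' deposited table), but its near-identical neighbour Csf2rb2 (1.03) may share reads with it. Cebpa, a factor of granulocytic and basophil fate, rose by 0.60, and Gata2, a factor of stem and mast cells, by 0.42 per the authors' deposited table. Kit, the stem cell factor receptor of progenitors and mast cells (0.11, adjusted p = 0.642), and Il1rl1, the IL-33 receptor (0.24, adjusted p = 0.294), were not called per the authors' deposited table. By limma, the median over the 7 receptor and factor genes with reads was 1.53 with all libraries, 1.22 without Smc3 a, 1.5 without Smc3 c and 1.28 with a sex term, while limma with all libraries called 0 of the 7 (7 at an unadjusted p under 0.05), where the authors' fit called 5.

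The promoters of 2 of these genes are shown because GATA factors are known to drive mast cell and basophil genes. The letters AGATAA, searched on both strands in windows of 300 bases around the start, were found for 3 of 11 mediator genes (27.3%) and 6 of 19 receptor and factor genes (31.6%) with a window, and for 6.61% of 9550 tested genes. A match is a description of these letters and not evidence of binding. In the 200 bases before the start, Fcer1a had 1 match, while Hdc and Gata2 had 0. The 200 bases before the start of Cpa3 (chr3:20242182-20242381, minus strand) and of Ms4a2 (chr19:11623720-11623919, minus strand) are from RefSeq on mouse build GRCm38.p6, 5′ to 3′, with the AGATAA letters or their reverse complement in capitals.
Cpa3: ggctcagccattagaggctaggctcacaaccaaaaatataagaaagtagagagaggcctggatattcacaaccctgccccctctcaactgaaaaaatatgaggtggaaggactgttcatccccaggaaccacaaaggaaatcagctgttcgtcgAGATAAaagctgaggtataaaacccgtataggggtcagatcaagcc
Ms4a2: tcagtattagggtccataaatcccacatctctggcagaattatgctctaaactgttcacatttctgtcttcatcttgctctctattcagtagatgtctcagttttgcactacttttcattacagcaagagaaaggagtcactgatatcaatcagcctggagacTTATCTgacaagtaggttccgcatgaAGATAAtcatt

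Eosinophil genes rose as well, in 5 of 8 tested with a median of 0.71 (62.5% higher, where genes with means of 200 to 1000 had 11.3%). Alox15, a lipoxygenase of eosinophils and alternatively activated macrophages, had the largest positive change of any called gene with a mean of at least 50 in these libraries. Its normalized counts were 1094, 565 and 423 in the Smc3 libraries, against 204, 179 and 161 in the WT libraries, with means of 694 ± 354 in Smc3 and 181 ± 21.3 in WT (SD, n = 3 each) and a log2 fold change of 1.38 ± 0.22, adjusted p = 2.21e-07, per the authors' deposited table. Il5ra, the receptor chain for the eosinophil growth factor IL-5, had 77.7, 69.9 and 119 in the Smc3 libraries, against 21.9, 23.3 and 36.3 in the WT libraries, a 3.27-fold ratio of means. Epx, the eosinophil peroxidase, and Prg3, a granule protein, had log2 fold changes of 0.86 ± 0.24, adjusted p = 0.00609, and 0.77 ± 0.23, adjusted p = 0.0129, per the authors' deposited table. Ccr3, the eotaxin receptor, overlapped between groups (51.3, 24.1 and 12.5 in Smc3 against 5.97, 16 and 18.2 in WT) and was not called. The median over the 4 eosinophil genes with reads was 1.52 by limma with all libraries, 1.06 without Smc3 a and 0.81 with a sex term, and limma with all libraries called 0 of the 4 (2 at an unadjusted p under 0.05), where the authors' fit called 2.

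Lipid mediator genes were called in both directions. Of 30 genes of eicosanoid synthesis and reception, which make and sense leukotrienes and prostaglandins, 8 were higher and 2 lower. These are 26.7% higher and 6.67% lower, where genes with means of 200 to 1000 had 11.3% and 3.86%. Alox5, the enzyme that starts leukotriene synthesis (1420.0 in Smc3 against 666 in WT), and its activating protein Alox5ap (2825 in Smc3 against 1623 in WT) rose by 0.83 and 0.69 per the authors' deposited table (adjusted p = 0.00232 and 0.00194). Cyp4f18, which inactivates leukotriene B4, had 966, 539.6 and 552 in the Smc3 libraries, against 219.8, 205 and 373 in the WT libraries. Its receptor Ltb4r1 had 410.2, 330.0 and 466 in the Smc3 libraries, against 161, 159 and 317 in the WT libraries, and both genes were higher in each Smc3 library than in any WT library. Ptges2, a prostaglandin E synthase, fell instead (log2 fold change -0.40 ± 0.12, adjusted p = 0.00997, per the authors' deposited table), as did the phospholipase Pla2g12a (-0.44).

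Receptors for extracellular nucleotides and adenosine were higher in 9 of 17 tested genes and lower in 0 (52.9% higher, where genes with means of 50 to 200 had 12.1%). Of the 16 with reads, limma with all libraries called 1 (10 at an unadjusted p under 0.05), where the authors' fit called 9. P2ry14, a receptor for UDP-glucose that marks progenitors, had 332, 210.4 and 235 in the Smc3 libraries, against 80.5, 87.3 and 107 in the WT libraries. The groups did not overlap, and the log2 fold change was 1.22 ± 0.20, adjusted p = 3.23e-07, per the authors' deposited table. P2rx7, the ATP-gated channel that triggers the inflammasome, had 437, 368 and 592 in the Smc3 libraries, against 254, 256 and 270.3 in the WT libraries, and the adenosine receptor Adora3, which strengthens mast cell degranulation, had 38.9, 24.1 and 45.8 in the Smc3 libraries, against 9.94, 13.1 and 10.1 in the WT libraries. Gpr34, a lysophosphatidylserine receptor of mast cells and myeloid cells, had 249.6, 94.8 and 114 in the Smc3 libraries, against 25.9, 52.4 and 42.4 in the WT libraries. Smc3 a was again the highest of the 3.

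Cytokine receptors were higher in 16 of 45 tested cases and lower in 0, with a median of 0.38 (35.6% higher, where genes with means of 200 to 1000 had 11.3%). Of the 22 with reads, limma with all libraries called 0 (10 at an unadjusted p under 0.05), where the authors' fit called 8. Il18r1 and Il18rap, both chains of the IL-18 receptor of basophils and NK cells, had log2 fold changes of 1.02 ± 0.19, adjusted p = 2.33e-05, and 1.16 ± 0.21, adjusted p = 9.65e-06, per the authors' deposited table. Il18r1 had normalized counts of 482, 291 and 307 in the Smc3 libraries, against 141, 139.8 and 173 in the WT libraries, and no Smc3 library overlapped WT. Il7r, the IL-7 receptor of early lymphoid cells, had 375, 239 and 455 in the Smc3 libraries, against 142, 165 and 198 in the WT libraries. Lifr, the leukaemia inhibitory factor receptor, had 136, 99.6 and 129 in the Smc3 libraries, against 49.7, 52.4 and 78.7 in the WT libraries. Flt3, the receptor of multipotent and dendritic progenitors (0.58), and Il6ra (0.57), the IL-6 receptor, were also called higher per the authors' deposited table. Epor, the erythropoietin receptor, was the only tested member with a negative change (-0.44, adjusted p = 0.110, per the authors' deposited table), and it was not called.

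Among 22 chemokine and chemoattractant receptors 5 rose and 0 fell (22.7% higher, where genes with means of 50 to 200 had 12.1%). Cxcr4, which retains stem and progenitor cells in the marrow, had an implied mean of 2685 in Smc3 against 1378 in WT, with a log2 fold change of 0.89 ± 0.13, adjusted p = 2.97e-09, per the authors' deposited table. Ccr2, which guides monocytes out of the marrow, rose by 0.81 (adjusted p = 9.03e-04, per the authors' deposited table). The neutrophil receptors Cxcr2 (350.5, 355 and 315 in Smc3 against 133, 146 and 327 in WT) and Fpr2 (40.5, 12 and 20.8 in Smc3 against 29.8, 30.6 and 149 in WT) overlapped between the groups, WT c being the highest WT library in both, and neither was called.

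Granulocyte genes were called higher mainly at the early stage. Of 21 genes of the primary granule and the promyelocyte stage 11 were higher and 0 lower, with a median of 0.61. These are 52.4% higher, where genes with means of 1000 to 5000 had 5.37%. Mpo, the myeloperoxidase of primary granules, had an implied mean of 120165 in Smc3 against 68499 in WT, Elane, neutrophil elastase, 16073 in Smc3 against 8910.0 in WT, and Ctsg, cathepsin G, 14179 in Smc3 against 7548 in WT. Their log2 fold changes were 0.70 ± 0.17, adjusted p = 0.00135, 0.68 ± 0.20, adjusted p = 0.0102, and 0.80 ± 0.16, adjusted p = 6.75e-05, per the authors' deposited table. Ms4a3, a gene of granulocyte and monocyte progenitors, rose by 0.75, and Gfi1, a repressor that directs granulocyte fate, by 0.66 per the authors' deposited table. Late granule and mature neutrophil genes had a median of -0.29, with 2 of 16 tested genes higher and 0 lower. Their 12.5% higher lay near the 11.3% of genes with means of 200 to 1000. Ltf, Camp, Ngp, Mmp8 and Mmp9, the defining genes of secondary and tertiary granules, had negative log2 fold changes of -0.38 to -0.57 but no adjusted p per the authors' deposited table. In the reconstructed reads, the late genes of WT c lay 0.94 above the WT mean on the log2 scale and those of WT a and b lay 0.46 and 0.51 below it, where Smc3 a, b and c lay at -0.28, -0.99 and 0.16, so the groups overlapped and WT c was the highest. By limma, the median over these 10 genes was -0.32 with all libraries, 0.10 without WT c and 0.31 with a sex term. The 4 early genes with reads had 0.80 with all libraries, 0.55 without Smc3 c and 1.79 with a sex term. Their per-library medians were 0.48, 0.67 and 1.72 in Smc3 a, b and c against -0.06, -0.42 and 0.63 in WT a, b and c. The groups overlapped here too, Smc3 a lying below WT c. Of these 4, limma with all libraries called 0 (1 at an unadjusted p under 0.05), where the authors' fit called 1.

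Monocyte and macrophage genes rose in 7 of 35 cases, with a median of 0.30 (20% higher, where genes with means of 200 to 1000 had 11.3%). Per library, the medians of the 20 genes with reads were 0.64, -0.31 and 0.67 in Smc3 a, b and c. WT a, b and c had -0.28, -0.47 and 0.87 on the log2 scale relative to the WT mean, so the groups overlapped and WT c was the highest. Of these 20, limma with all libraries called 0 (3 at an unadjusted p under 0.05), where the authors' fit called 2. F13a1, the coagulation factor chain of monocytes (8674 in Smc3 against 4842 in WT), and Clec12a, an inhibitory lectin of myeloid progenitors (3045 in Smc3 against 1580.3 in WT), had log2 fold changes of 0.68 ± 0.19, adjusted p = 0.00753, and 0.77 ± 0.19, adjusted p = 0.00186, per the authors' deposited table. Csf1r, the macrophage growth factor receptor (0.44, adjusted p = 0.117), and Irf8, the factor of monocyte and dendritic fate (0.43, adjusted p = 0.135), were not called per the authors' deposited table. Of 7 subunits of the phagocyte NADPH oxidase and its Rac partners, 2 rose, Ncf1 (log2 fold change 0.61 ± 0.17, adjusted p = 0.00747, per the authors' deposited table) and Rac2.

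Dendritic cell genes of both branches were called mainly higher. Among plasmacytoid genes 7 of 23 rose and 1 fell (30.4% higher, where genes with means of 200 to 1000 had 11.3%). Siglech, a defining receptor of plasmacytoid dendritic cells, had 103, 125 and 334 in the Smc3 libraries, against 28.8, 27.7 and 84.7 in the WT libraries. Lag3, an inhibitory receptor carried by plasmacytoid and lymphoid cells, had 313, 251 and 192 in the Smc3 libraries, against 82.5, 85.9 and 125 in the WT libraries. The Smc3 libraries lay above WT in both genes, and Smc3 c was the highest for Siglech and the lowest of the 3 for Lag3. Irf7, the interferon regulator that these cells carry at high levels, fell (232, 244 and 300.1 in the Smc3 libraries, against 426, 429 and 327 in the WT libraries). Tcf4, their defining factor (0.13), and Bst2 (-0.01) were not called per the authors' deposited table. Of 20 genes of classical dendritic cells and MHC class II 8 rose and 0 fell (40% higher, where genes with means of 50 to 200 had 12.1%). Of the 17 with reads, limma with all libraries called 1 (9 at an unadjusted p under 0.05), where the authors' fit called 7. H2-Oa, a modulator of peptide loading, had 189, 189.5 and 199 in the Smc3 libraries, against 101, 108 and 92.8 in the WT libraries. H2-Ab1, an MHC class II chain, had 566, 508 and 547 in the Smc3 libraries, against 408, 341 and 442 in the WT libraries. Cd74, the invariant chain, was not called (0.23, adjusted p = 0.554, per the authors' deposited table). The medians of these lists per library were 0.34, 0.74 and 1.43 in Smc3 a, b and c against -0.11, -0.24 and 0.38 in WT a, b and c for plasmacytoid genes, and 0.67, 0.60 and 1.12 in Smc3 against -0.26, -0.21 and 0.43 in WT for classical genes, on the log2 scale relative to the WT mean. By limma, the median over the 15 plasmacytoid genes with reads was 0.72 with all libraries (1 called), 0.54 without Smc3 c and 1.51 with a sex term (11 called), where the authors' fit called 6 higher and 1 lower.

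Natural killer cell and cytotoxic genes rose in 14 of 29 tested cases and fell in 0, with a median of 0.47. These are 48.3% higher, where genes with means of 50 to 200 had 12.1%. Clec2i, a ligand of the Nkrp1 receptors, had 327, 230.5 and 293 in the Smc3 libraries, against 69.6, 100.5 and 103 in the WT libraries, a 3.11-fold ratio with no overlap. Ncr1, the activating receptor that defines the NK lineage, had 89.3, 84.3 and 146 in the Smc3 libraries, against 47.7, 46.6 and 40.3 in the WT libraries. Klrd1, the CD94 chain of inhibitory NK receptors, had 72.5, 72.3 and 178 in the Smc3 libraries, against 44.7, 43.7 and 42.4 in the WT libraries. Levels in Smc3 c were higher than in Smc3 a and b for these 2 receptors, and the list median was 1.24 in Smc3 c, against 0.38 in Smc3 a and 0.30 in Smc3 b. Without Smc3 c the median over the 26 genes with reads was 0.39 by limma, with all libraries it was 0.47, and with a sex term 1.24. Limma with all libraries called 2 of the 26 (11 at an unadjusted p under 0.05), where the authors' fit called 12. The effector genes Prf1 (19.6, 21.7 and 33.3 in Smc3 against 22.9, 23.3 and 20.2 in WT), which forms perforin pores, and Gzma (-0.12), a granzyme, and the factor Eomes (9.61, 9.64 and 33.3 in Smc3 against 21.9, 27.7 and 22.2 in WT) were not called. Of 19 T cell genes 1 was higher and 0 lower (5.26% higher, near the 4.09% of genes with means under 50). Their median was 0.11, and by limma -0.01 with all libraries and 0.69 with a sex term. Of 32 B lymphoid genes 2 were higher and 1 lower, with a median of 0.01. These are 6.25% higher and 3.12% lower, where genes with means of 200 to 1000 had 11.3% and 3.86%.

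Receptor families that these lineages share were called mainly higher. Of the SLAM family, which regulates contacts between blood cells, 5 of 8 tested members rose (62.5%, where genes with means of 200 to 1000 had 11.3%). Cd244 had 621, 436 and 536 in the Smc3 libraries, against 192, 213 and 284 in the WT libraries, and Cd48, its ligand, had a log2 fold change of 0.66 ± 0.16, adjusted p = 0.00107, per the authors' deposited table. Slamf1, the CD150 marker of stem cells, overlapped between groups (111, 98 and 72.9 in Smc3 against 87.5, 74.2 and 48.4 in WT) and was not called. Of Siglec, CD300 and C-type lectin receptors 10 of 31 rose and 0 fell (32.3% higher, where genes with means of 50 to 200 had 12.1%). Of the 29 with reads, 7 lay fully above WT, where 23.9% of all tested genes with reads did. Their per-library medians were 0.29, 0.29 and 0.94 in Smc3 a, b and c against -0.32, -0.16 and 0.46 in WT a, b and c. For these 29, limma with all libraries called 1 (8 at an unadjusted p under 0.05), where the authors' fit called 8. Among Toll-like receptors and nucleic acid sensors 10 of 37 rose and 1 fell (27% higher, where genes with means of 200 to 1000 had 11.3%). The 23 with reads had medians of 0.40, 0.15 and 0.89 in Smc3 a, b and c against -0.02, -0.15 and 0.24 in WT a, b and c. Smc3 b lay below WT c. For these 23, limma with all libraries called 0 (9 at an unadjusted p under 0.05), where the authors' fit called 6. Tlr9, the endosomal DNA sensor, had 109.8, 143 and 189.6 in the Smc3 libraries, against 58.7, 51 and 80.7 in the WT libraries, while Ifih1, the sensor of long double-stranded RNA, fell (log2 fold change -0.42 ± 0.14, adjusted p = 0.0232, per the authors' deposited table).

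**Figure D2:**
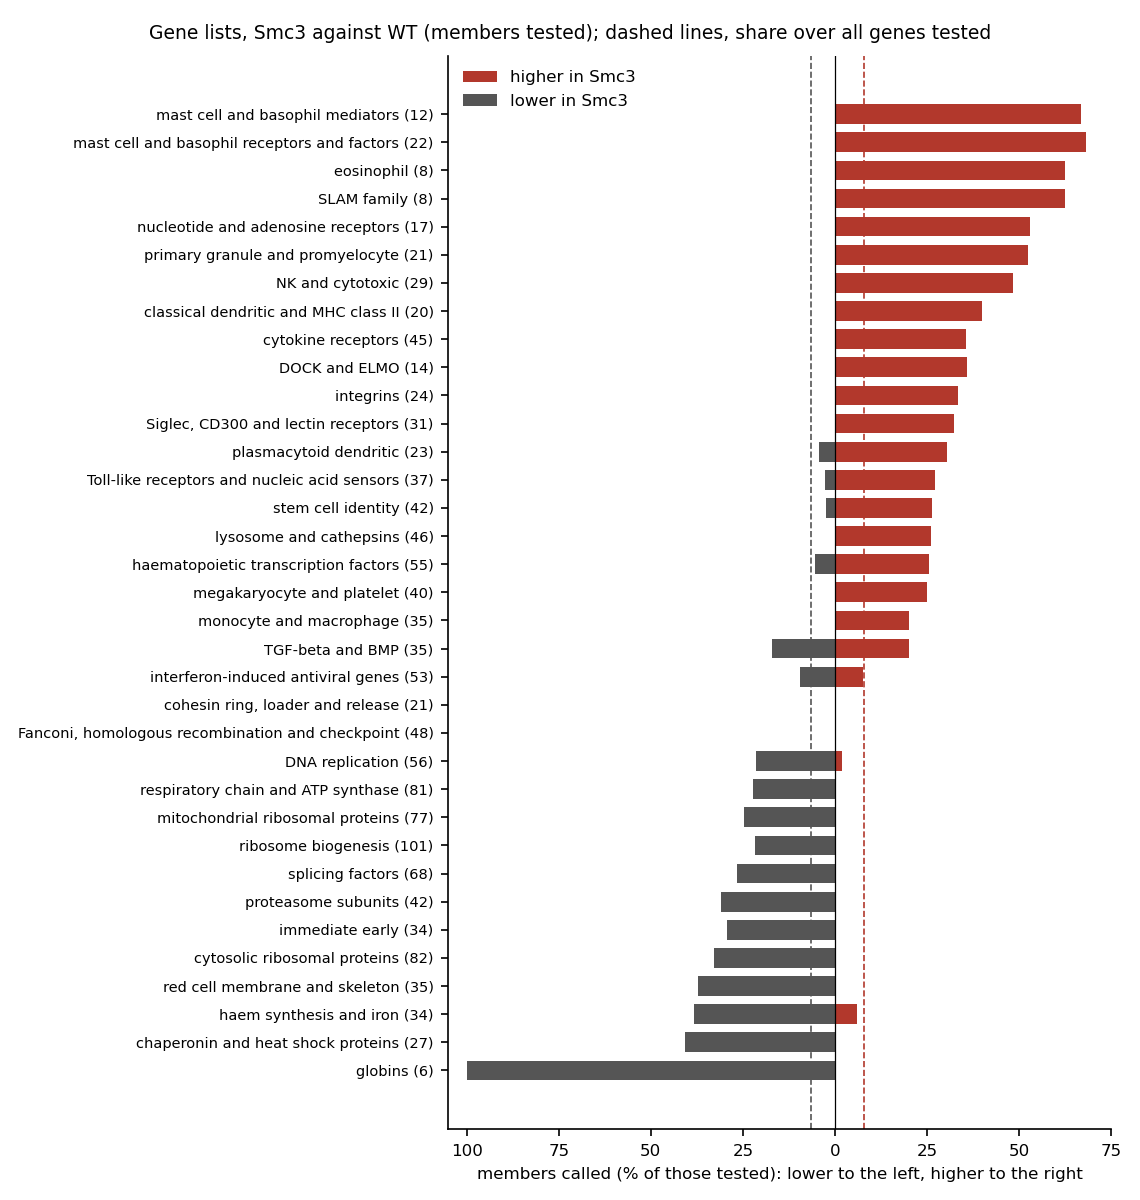
Share of tested members of each gene list called higher (red, to the right) or lower (grey, to the left) in Smc3 than in WT, in percent of the members tested (in brackets). Dashed lines give the share over all tested genes, 7.94% higher and 6.6% lower; globins (all 6 lower) and mast cell and basophil lists lie at the extremes.

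Cytokine and chemokine genes were higher in 9 of 27 cases and lower in 1 (33.3% higher, where genes with means of 50 to 200 had 12.1%). Ccl9, a chemokine of myeloid cells, had an implied mean of 2712 in Smc3 against 1364 in WT, and Csf1, the macrophage growth factor, 814 in Smc3 against 450.4 in WT, with log2 fold changes of 0.95 ± 0.10, adjusted p = 5.08e-16, and 0.79 ± 0.13, adjusted p = 1.11e-06, per the authors' deposited table. Il15, which sustains NK cells, had 199.9, 166 and 297 in the Smc3 libraries, against 96.5, 103 and 143 in the WT libraries. Il1b, a cytokine activated by the inflammasome, moved the other way, with 28.4, 19.3 and 25 in the Smc3 libraries, against 54.7, 49.5 and 171 in the WT libraries, and lay below WT in every Smc3 library. Il6 had 215, 79.5 and 325 in Smc3 against 83.5, 105 and 66.6 in WT, and Ccl6 had 878, 463 and 444 in Smc3 against 219.8, 231 and 468 in WT. Both were called higher although the groups overlapped. Of the lists for NF-kappaB subunits, Wnt and Notch signalling, 0, 0 and 1 genes were higher and 1, 1 and 0 lower, of 29, 31 and 25 tested.

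Stem cell genes rose in 11 of 42 tested cases and fell in 1, with a median of 0.27. These are 26.2% higher, where genes with means of 200 to 1000 had 11.3%. The 28 with reads had medians of 0.16, 0.47 and 0.56 in Smc3 a, b and c against -0.11, -0.03 and 0.21 in WT a, b and c. Smc3 a lay below WT c. Limma with all libraries called 0 of the 28 (7 at an unadjusted p under 0.05), where the authors' fit called 5 higher and 1 lower. Cd34, the sialomucin of progenitors, had an implied mean of 5337 in Smc3 against 3304 in WT (log2 fold change 0.62 ± 0.15, adjusted p = 0.00199, per the authors' deposited table). Hlf, a factor of stem cell quiescence, had 351, 578 and 579 in the Smc3 libraries, against 266, 265 and 403 in the WT libraries. The range of Smc3 overlapped that of WT for this gene, Smc3 a lying below WT c. Erg, an ETS factor needed for stem cell maintenance, had 674, 830.3 and 863 in the Smc3 libraries, against 541, 469 and 641 in the WT libraries. Procr (0.36), Mecom (0.03) and Ly6a (0.07), which mark stem cells, were not called per the authors' deposited table. Pdzk1ip1, enriched in quiescent stem cells, fell (134, 176 and 158 in the Smc3 libraries, against 207, 236 and 274 in the WT libraries). Hox genes of the A cluster were called in 0 of 8 cases by the authors' DESeq2 fit (1 had an unadjusted p under 0.05). Hoxa9 had a log2 fold change of 0.31 (adjusted p = 0.188) per the authors' deposited table, and in Npm1 and Double it had 2.00 and 1.99.

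Transcription factors of blood lineages rose in 14 of 55 cases and fell in 3 (25.5% higher, where genes with means of 1000 to 5000 had 5.37%). Ets1, a factor of lymphoid and basophil cells, had an implied mean of 1574 in Smc3 against 687 in WT, with a log2 fold change of 1.03 ± 0.17, adjusted p = 1.06e-06, per the authors' deposited table. Ikzf2 (0.64) and Satb1 (0.77), chromatin-binding factors of lymphoid progenitors, and Runx1 (0.40), the core-binding factor of definitive blood, were also higher per the authors' deposited table. Tcf3 (-0.42), Ets2 (-0.50) and Nfia (-0.50), a factor of erythroid fate, were lower per the authors' deposited table. Spi1, the PU.1 factor of myeloid cells, was not called (0.38, adjusted p = 0.162, per the authors' deposited table).

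Megakaryocyte and platelet genes rose in 10 of 40 cases, with 0 lower and a median of 0.27. These are 25% higher, where genes with means of 200 to 1000 had 11.3%. Itga2b and Itgb3, which pair as the platelet fibrinogen receptor, had implied means of 3344 in Smc3 against 2009 in WT and 887 in Smc3 against 483 in WT, with log2 fold changes of 0.64 ± 0.17, adjusted p = 0.00377, and 0.82 ± 0.12, adjusted p = 2.03e-08, per the authors' deposited table. Tubb1, the tubulin of platelets, had 90.5, 71.5 and 40.6 in the Smc3 libraries, against 12.9, 29.1 and 24.2 in the WT libraries. Ppbp, the platelet basic protein, had 86.9, 74.7 and 66.7 in the Smc3 libraries, against 39.8, 26.2 and 38.3 in the WT libraries, and neither gene overlapped between groups. The platelet genes Pf4 (0.05), Gp9 (0.15) and Gp1bb (0.00) were not called per the authors' deposited table.

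Integrins rose in 8 of 24 cases with 0 lower (33.3% higher, where genes with means of 200 to 1000 had 11.3%). Among them were Itgav (440.2, 450.5 and 517 in the Smc3 libraries, against 276, 266 and 311 in the WT libraries) and Itga1 (244, 224 and 300.1 in the Smc3 libraries, against 139, 114 and 196 in the WT libraries). L1cam, a neural adhesion molecule, had an implied mean of 503 in Smc3 against 179 in WT, and Cdh1, E-cadherin, 919.9 in Smc3 against 339 in WT. Their log2 fold changes were 1.16 ± 0.20, adjusted p = 3.59e-06, and 1.02 ± 0.22, adjusted p = 4.35e-04, per the authors' deposited table. Selplg, the P-selectin ligand (0.51), was higher per the authors' deposited table, while Pvrl2, a nectin, was lower (64.1, 73.1 and 40.6 in the Smc3 libraries, against 120.3, 105 and 101 in the WT libraries).

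The DOCK and ELMO genes, whose products activate Rac GTPases, were called higher in 5 of 14 cases and lower in 0. These are 35.7% higher, where genes with means of 1000 to 5000 had 5.37%. Elmo1, the scaffold that partners DOCK proteins, had an implied mean of 2027 in Smc3 against 1289 in WT, and Dock2, the hematopoietic activator of Rac, 4512 in Smc3 against 3322 in WT. Their log2 fold changes were 0.57 ± 0.17, adjusted p = 0.0112, and 0.40 ± 0.14, adjusted p = 0.0325, per the authors' deposited table. Dock1, named in the series title, had 276, 385 and 559.6 in the Smc3 libraries, against 279, 261 and 351 in the WT libraries. The groups overlapped and it was not called in Smc3 (log2 fold change 0.36 ± 0.20, adjusted p = 0.222, per the authors' deposited table), where Npm1 had -0.63 and Double 0.53. Rac2, the Rac GTPase of blood cells, had an implied mean of 5638 in Smc3 against 4238 in WT (log2 fold change 0.38 ± 0.14, adjusted p = 0.0397, per the authors' deposited table), where Npm1 had -0.68 and Double 0.10. Rac1 was not called (0.06, adjusted p = 0.770, per the authors' deposited table).

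Lysosomal genes were higher in 12 of 46 cases and lower in 0 (26.1% higher, where genes with means of 1000 to 5000 had 5.37%). Cd63, a tetraspanin of lysosomes and of mast cell and basophil granules, had an implied mean of 2196 in Smc3 against 1079 in WT (log2 fold change 0.95 ± 0.13, adjusted p = 2.92e-10, per the authors' deposited table). Man2b1, a lysosomal mannosidase, rose by 0.64 and Arsb, arylsulfatase B, by 0.77 per the authors' deposited table (adjusted p = 8.98e-08 and 1.14e-05). Naglu, a heparan sulfate hydrolase, had 376, 390.3 and 426 in the Smc3 libraries, against 239.6, 204 and 278 in the WT libraries. Subunits of the V-ATPase, which acidifies these organelles, were called in 0 of 18 cases by the authors' DESeq2 fit (2 had an unadjusted p under 0.05).

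Erythroid genes were called mainly lower. All 6 tested globin genes were lower, but they stand for 3 distinct profiles, since Hba-a1 and Hba-a2, Hbb-b1 and Hbb-bs, and Hbb-b2 and Hbb-bt carry the same or nearly the same values and cannot be told apart. Hba-a1, alpha globin, had an implied mean of 1255 in Smc3 against 2462 in WT, and Hbb-b1, beta globin, 4162 in Smc3 against 8033 in WT, with log2 fold changes of -0.84 ± 0.17, adjusted p = 7.33e-05, and -0.75 ± 0.20, adjusted p = 0.00383, per the authors' deposited table. Slc4a1, the band 3 anion exchanger of the red cell membrane, had an implied mean of 3488 in Smc3 against 7498 in WT, a log2 fold change of -1.0 ± 0.15, adjusted p = 9.77e-09, per the authors' deposited table. Of 35 genes of the red cell membrane and skeleton 13 were lower and 0 higher, and of 34 genes of haem synthesis and iron 13 were lower and 2 higher. The shares lower were 37.1% and 38.2%, where genes with means of 1000 to 5000, which hold the median of both lists, had 9.92%. Cd36, a fatty acid receptor of early erythroid cells, had 251, 179 and 158 in the Smc3 libraries, against 329, 361 and 333 in the WT libraries. Acp5, an acid phosphatase counted here with red cell genes, had 300.4, 243 and 383 in the Smc3 libraries, against 541, 504 and 476 in the WT libraries. Both lay below WT in all 3 Smc3 libraries.

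Alas2, the erythroid enzyme that starts haem synthesis, had a log2 fold change of -0.69 ± 0.20, adjusted p = 0.00883, per the authors' deposited table, while Alas1, its counterpart in other cells, rose (0.65 ± 0.16, adjusted p = 0.00135, per the authors' deposited table). Urod (-0.49) and Alad (-0.43), middle steps of the same path, were lower per the authors' deposited table. Fth1, the ferritin heavy chain, had a log2 fold change of -0.40 (adjusted p = 1.49e-05, per the authors' deposited table). Klf1, the factor that activates globin and membrane genes, had an implied mean of 4023 in Smc3 against 6091 in WT, and Zfpm1, the GATA1 cofactor FOG1, 6258 in Smc3 against 9827 in WT, with log2 fold changes of -0.53 ± 0.16, adjusted p = 0.0102, and -0.56 ± 0.17, adjusted p = 0.0111, per the authors' deposited table. Gata1 itself (-0.38, adjusted p = 0.125) and Epor were not called per the authors' deposited table. Car1 (-0.06) and Car2 (-0.36), carbonic anhydrases of erythroid cells, were not called either per the authors' deposited table.

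Genes of the growth machinery were called lower, by small amounts. Of 101 ribosome biogenesis genes 22 fell and 0 rose (21.8% lower, where genes with means of 1000 to 5000 had 9.92%), with a median of -0.22. Ncl, nucleolin, had an implied mean of 50632 in Smc3 against 64505 in WT and a log2 fold change of -0.34 ± 0.09, adjusted p = 0.00603, per the authors' deposited table. Utp18 (-0.41) and Ddx21 (-0.37), which process pre-ribosomal RNA, were lower per the authors' deposited table. Of 82 cytosolic ribosomal protein genes 27 fell and 0 rose (32.9% lower, where genes with means of 5000 and over had 23.2%), among them Rpl37 (-0.49) and Rps12 (-0.49) per the authors' deposited table. Many ribosomal protein genes have processed pseudogenes that can take their reads. Mitochondrial ribosomal protein genes fell in 19 of 77 cases (24.7%, where genes with means of 1000 to 5000 had 9.92%). Mrpl54 had 676, 676 and 630.4 in the Smc3 libraries, against 1047, 815 and 853 in the WT libraries, and Mrps36 had 236, 226 and 180.3 in the Smc3 libraries, against 351, 326 and 268 in the WT libraries, with no overlap in either. The 16 such genes with reads had per-library medians of -0.29, -0.23 and -0.28 in Smc3 a, b and c against 0.05, -0.02 and -0.02 in WT a, b and c.

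Chaperones of newly made proteins fell in 11 of 27 cases (40.7%, where genes with means of 5000 and over had 23.2%). Hspd1 and Hspe1, which form the mitochondrial chaperonin, had log2 fold changes of -0.45 ± 0.08, adjusted p = 1.35e-05, and -0.43 ± 0.08, adjusted p = 1.18e-05, per the authors' deposited table, and 5 subunits of the cytosolic chaperonin TRiC, led by Cct7 (-0.37), were lower per the authors' deposited table. Mthfd1, which supplies one-carbon units for nucleotide synthesis, had an implied mean of 10290.2 in Smc3 against 16458 in WT and a log2 fold change of -0.62 ± 0.13, adjusted p = 2.25e-04, per the authors' deposited table. Cad (-0.46), which starts pyrimidine synthesis, and Odc1 (-0.37), which starts polyamine synthesis, were lower per the authors' deposited table, while Myc was not called (0.17, adjusted p = 0.313, per the authors' deposited table). Respiratory chain and ATP synthase genes fell in 18 of 81 cases, proteasome subunits in 13 of 42 and splicing factors in 18 of 68, with medians of -0.20, -0.20 and -0.19 and no member higher in these 3 lists. The shares lower were 22.2%, 31% and 26.5%, where genes with means of 1000 to 5000, which hold the median of each list, had 9.92% and those with means of 5000 and over 23.2%.

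Genes of other metabolic and chromatin lists were called in both directions. Genes of the NRF2 and glutathione system fell in 8 of 30 cases and rose in 1, with Gpx4, which removes lipid peroxides (-0.37), and Gclm, a subunit of the enzyme that starts glutathione synthesis (-0.43), lower and Gstm1, a glutathione transferase (0.80), higher per the authors' deposited table. Glycolysis genes were higher in 2 of 25 cases and lower in 2, Pkm, the pyruvate kinase of most tissues, having 0.57 and Pklr, the erythroid and liver form, -0.54 per the authors' deposited table. Citric acid cycle genes fell in 7 of 25 cases and cytosolic tRNA synthetases in 6 of 22. The shares lower were 26.7% for the NRF2 list, 28% for the citric acid cycle and 27.3% for tRNA synthetases, where genes with means of 1000 to 5000, which hold the median of each list, had 9.92% and all genes 6.6%. Polycomb genes were higher in 1 of 36 cases and lower in 3, the largest change being that of Kdm6b, an H3K27 demethylase (-0.77 per the authors' deposited table). Of 40 replication-dependent histone genes 2 were higher and 0 lower. Hist1h2bg had 242, 196 and 366 in the Smc3 libraries, against 138, 156 and 151 in the WT libraries, and Hist2h2be had 307, 301 and 295 in the Smc3 libraries, against 199.9, 204 and 199.7 in the WT libraries, both members of families of near-identical genes. Cholesterol synthesis genes were called in 1 of 33 cases, higher, and circadian clock genes in 2 of 15, higher.

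Replication genes fell in 12 of 56 cases (21.4%, where genes with means of 1000 to 5000 had 9.92%) and rose in 1. The 5 called subunits of the MCM helicase, Mcm2 (-0.35), Mcm3 (-0.24), Mcm4 (-0.28), Mcm5 (-0.31) and Mcm7 (-0.32), had small negative changes per the authors' deposited table. Mitosis and kinetochore genes were lower in 3 of 70 cases, and Fanconi, homologous recombination and checkpoint genes were called in 0 of 48 by the authors' DESeq2 fit (4 had an unadjusted p under 0.05). Of p53 targets 1 of 31 rose and 1 fell. Bbc3, the BH3-only death activator PUMA, had 256, 213 and 246 in the Smc3 libraries, against 458, 435 and 459.9 in the WT libraries. Its 3 Smc3 values lay close together and all below WT, with means of 238 ± 22.4 in Smc3 and 451 ± 13.8 in WT (SD, n = 3 each) and a log2 fold change of -0.85 ± 0.13, adjusted p = 1.10e-07, per the authors' deposited table. Bcl2, a protector from apoptosis, rose by 0.40 (adjusted p = 0.0384, per the authors' deposited table), while Cdkn1a, the p53-induced cell cycle inhibitor, was not called (-0.08). Among the p53 targets with no adjusted p, Phlda3 had 490.3, 69.1 and 66.7 in the Smc3 libraries, against 59.7, 62.6 and 72.6 in the WT libraries, and Eda2r had 152, 14.5 and 13.5 in the Smc3 libraries, against 16.9, 14.6 and 18.2 in the WT libraries. Smc3 a stood apart in both, while Smc3 b and c lay with WT.

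Immediate early genes, which respond to stimulation within minutes, fell in 10 of 34 cases and rose in 0, with a median of -0.41. These are 29.4% lower, where genes with means of 1000 to 5000 had 9.92%. Fosb had an implied mean of 3626 in Smc3 against 9688 in WT, and Egr1 3395 in Smc3 against 7701 in WT, with log2 fold changes of -0.84 ± 0.24, adjusted p = 0.00847, and -0.66 ± 0.24, adjusted p = 0.0491, per the authors' deposited table. Maff had 41.3, 33.7 and 132 in the Smc3 libraries, against 203, 191 and 246 in the WT libraries. Smc3 c lay between the other Smc3 libraries and WT, and the same held for the median of the 8 genes with reads, which was -1.67, -1.48 and -0.34 in Smc3 a, b and c against -0.12, -0.08 and 0.23 in WT a, b and c. Fos (-0.52), Jun (-0.42) and Dusp1 (-0.51) were not called per the authors' deposited table. By limma, the median of the 8 genes was -1.37 with all libraries and -0.34 with a sex term.

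Id3, an inhibitor of basic helix-loop-helix factors that TGF-beta and BMP induce, had the largest negative change of the called genes with a mean of at least 50. Its normalized counts were 14, 12 and 32.3 in the Smc3 libraries, against 83.5, 100.5 and 147 in the WT libraries. The groups did not overlap, with means of 19.5 ± 11.2 in Smc3 and 110.4 ± 33 in WT (SD, n = 3 each), a 5.67-fold ratio and a log2 fold change of -1.48 ± 0.24, adjusted p = 4.37e-07, per the authors' deposited table. Smad7, the feedback inhibitor of TGF-beta signalling, had an implied mean of 378 in Smc3 against 942 in WT (log2 fold change -1.11 ± 0.18, adjusted p = 2.24e-07, per the authors' deposited table). Skil (-0.63) and Klf10 (-0.51), also induced by TGF-beta, were lower per the authors' deposited table. Among the receptors, Acvr1b, which binds activin, rose, with 479.9, 561 and 579 in the Smc3 libraries, against 287, 322 and 329 in the WT libraries, and Tgfbr1 and Tgfbr2 had log2 fold changes of 0.49 and 0.52 (adjusted p = 0.00173 and 0.00520) per the authors' deposited table, while the co-receptor Eng was lower (-0.42). Id2, a relative of Id3, rose (345, 226 and 468 in Smc3 against 146, 153 and 238 in WT), Smc3 b lying below WT c, and Id1 was not called (0.30, adjusted p = 0.352, per the authors' deposited table). Over the list, 7 of 35 genes were higher and 6 lower (20% and 17.1%, where genes with means of 200 to 1000 had 11.3% and 3.86%).

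Interferon-induced genes were called in both directions, with 4 of 53 higher, 5 lower and a median of -0.02. The shares were 7.55% higher and 9.43% lower, where genes with means of 200 to 1000 had 11.3% and 3.86%. By limma, the median over the 29 such genes with reads was -0.08 with all libraries and 0.41 with a sex term. The lower ones were Rsad2, Isg15, Isg20, Irf7 and Ifih1. Rsad2, which encodes viperin, had 246, 181 and 171 in the Smc3 libraries, against 486, 501 and 575 in the WT libraries, with means of 199.6 ± 40.9 in Smc3 and 521 ± 47.5 in WT (SD, n = 3 each) and a log2 fold change of -1.20 ± 0.16, adjusted p = 4.10e-10, per the authors' deposited table. Isg15, the ubiquitin-like modifier, had 65.7, 57 and 95.9 in the Smc3 libraries, against 167, 181 and 159 in the WT libraries. Of 9 genes of the oligoadenylate synthetase family and RNase L 2 were lower and 0 higher (22.2% lower, where genes with means of 50 to 200 had 2.46%). Oasl1, an antiviral relative of the sensors and inhibitor of Irf7 translation, had 201, 283 and 185 in the Smc3 libraries, against 527, 460.0 and 442 in the WT libraries, and Oas3, which makes the activator of RNase L, had 178, 207 and 258 in the Smc3 libraries, against 378, 377 and 369 in the WT libraries. None of the 4 overlapped between groups. Irgm2 (229.9, 249.7 and 283 in the Smc3 libraries, against 174, 162 and 161 in the WT libraries) and Gbp2 (282, 271 and 350.1 in the Smc3 libraries, against 176, 226 and 222 in the WT libraries), interferon-induced GTPases, were higher instead. Mx1 (0.46) and Ifit1 (-0.10) were not called per the authors' deposited table.

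The promoters of Rsad2 and Isg15 are shown because interferon-stimulated response elements hold the letters GAAA, any 2 bases and GAAA again. These letters, searched on both strands in the same 300-base windows, were found for 20 of 41 interferon-induced genes with a window (48.8%) and for 3.07% of 9550 tested genes. In the 200 bases before the start, Ifit1 had 2 matches and Oasl1 had 0. The 200 bases before the start of Rsad2 (chr12:26456453-26456652, minus strand) and Isg15 (chr4:156200819-156201018, minus strand) are from RefSeq on build GRCm38.p6, 5′ to 3′, with these letters or their reverse complement in capitals, overlapping matches running together.
Rsad2: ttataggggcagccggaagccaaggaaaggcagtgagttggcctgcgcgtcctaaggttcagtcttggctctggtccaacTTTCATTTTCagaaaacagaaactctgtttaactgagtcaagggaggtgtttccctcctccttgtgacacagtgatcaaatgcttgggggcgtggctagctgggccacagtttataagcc
Isg15: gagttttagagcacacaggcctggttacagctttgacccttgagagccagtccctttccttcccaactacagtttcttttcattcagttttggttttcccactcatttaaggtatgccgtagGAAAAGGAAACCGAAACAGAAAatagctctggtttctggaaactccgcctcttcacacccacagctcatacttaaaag

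Zinc finger genes of the Zfp series, many of which encode KRAB repressors of transposable elements, rose in 45 of 307 tested cases and fell in 4, with a median of 0.20. The share higher was 14.7%, where genes with means of 50 to 200 had 12.1% and those with means of 200 to 1000 had 11.3%. Zfp799 had 346, 316 and 276 in the Smc3 libraries, against 172, 182 and 173 in the WT libraries, and Zfp945 had 345, 289.9 and 273 in the Smc3 libraries, against 159, 178 and 182 in the WT libraries. Both were higher in every Smc3 library. The 206 genes with reads had medians of 0.37, 0.32 and 0.36 in Smc3 a, b and c. By limma with all libraries 3 of the 206 were called higher, where the authors' fit called 35.

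Imprinted genes, which cohesin and CTCF help to insulate, fell in 4 of 14 tested cases (28.6%, where genes with means of 200 to 1000 had 3.86%). Phlda2, expressed from the maternal allele, had 24.4, 27.3 and 26.1 in the Smc3 libraries, against 65.6, 78.6 and 68.6 in the WT libraries, a 2.74-fold ratio of means with no overlap (log2 fold change -1.05 ± 0.22, adjusted p = 1.77e-04, per the authors' deposited table). Kcnq1ot1, the antisense RNA that silences the domain holding Phlda2, had an implied mean of 1969 in Smc3 against 2866 in WT and a log2 fold change of -0.51 ± 0.11, adjusted p = 5.53e-04, per the authors' deposited table, but it overlaps Kcnq1 on the other strand and the kit keeps no strand. Grb10 (-0.48) and Igf2r (-0.51) were lower per the authors' deposited table, and Gnas (-0.05) and Mest (0.41) were not called.

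Several of the 50 genes with the largest changes stand outside the groups given so far. Pdzd4, a PDZ domain protein, had 508, 306 and 303 in the Smc3 libraries, against 86.5, 94.6 and 143 in the WT libraries, and Kcnj2, an inward rectifier potassium channel, had 312, 223 and 234 in the Smc3 libraries, against 84.5, 68.4 and 96.8 in the WT libraries. Serpine2, a protease inhibitor, had 697, 442 and 592 in the Smc3 libraries, against 216, 230.0 and 254 in the WT libraries. All 3 were above WT in every library, with ratios of 3.44, 3.08 and 2.47. Cyp11a1, which starts steroid synthesis, had 881, 552 and 407 in the Smc3 libraries, against 203, 249 and 208 in the WT libraries. On the lower side, Sowaha had 197, 194 and 148 in the Smc3 libraries, against 407, 400.4 and 476 in the WT libraries, Prelid2 had 185, 214 and 174 in the Smc3 libraries, against 418, 393 and 347 in the WT libraries and Gls2, the liver-type glutaminase, had 137, 129 and 94.8 in the Smc3 libraries, against 264, 259 and 232 in the WT libraries. No values overlapped in these 3 genes either. Ptpn13, a tyrosine phosphatase, had an implied mean of 299 in Smc3 against 746 in WT, and Myh10, a nonmuscle myosin, 4380.3 in Smc3 against 8562 in WT, with log2 fold changes of -1.09 ± 0.19, adjusted p = 1.40e-06, and -0.86 ± 0.16, adjusted p = 7.33e-06, per the authors' deposited table.

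**Figure D3:**
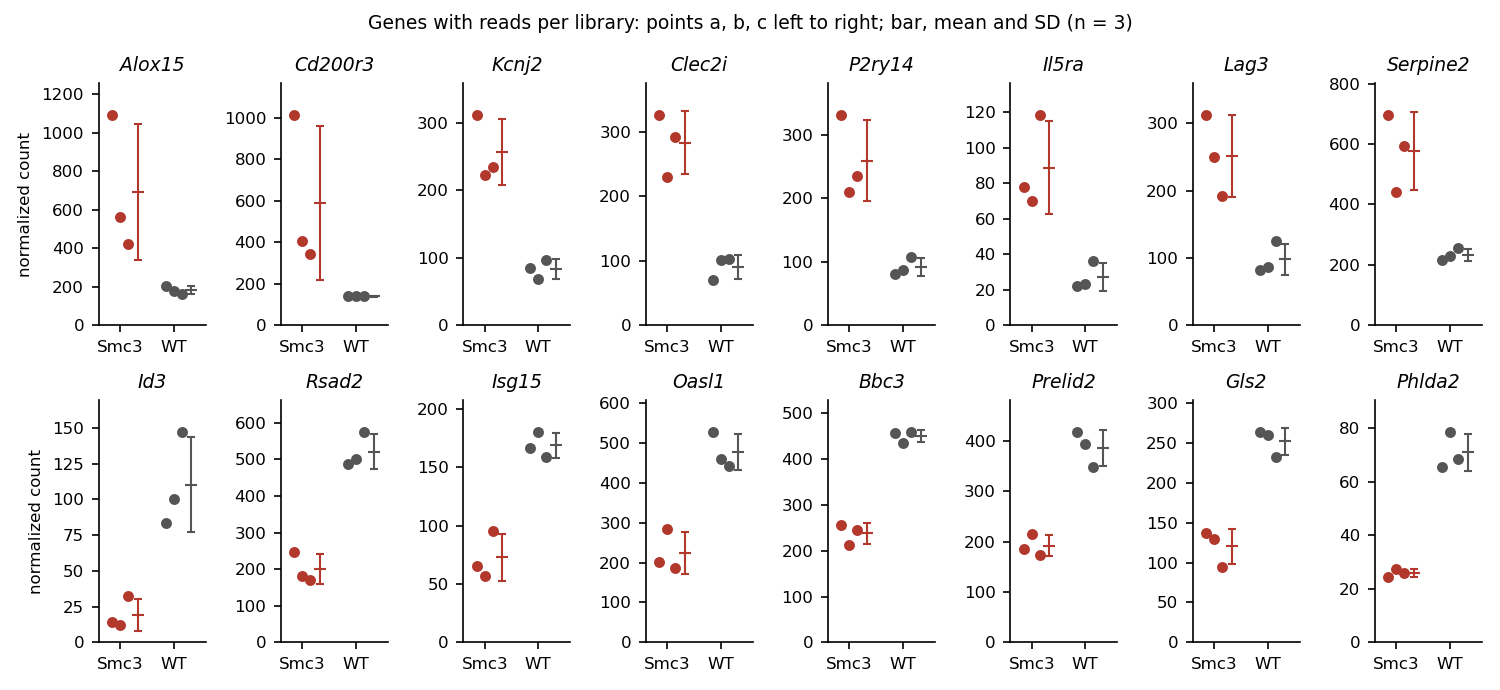
Normalized counts (y axis, linear, from 0) of 16 genes in the 3 Smc3 libraries (red, left) and the 3 WT libraries (grey, right), with points in the order a, b, c and the mean ± SD (n = 3) beside them. The 8 genes of the upper row were higher and the 8 of the lower row lower in every Smc3 library than in any WT library.

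The genes of other cell types give the setting of these changes on a scale of normalized count per kilobase of transcript. All 5 markers of mast cells and basophils were higher, with median levels of 3046 in Smc3 and 949 in WT, and all 6 erythroid markers were lower, with medians of 1194 in Smc3 and 1649.8 in WT over the 5 that have a level per kilobase (not Hbb-b1). Of 10 HSPC markers 5 were higher and 0 lower by the authors' DESeq2 fit (medians 1585 in Smc3 and 1190 in WT). T cell markers had medians of 13.9 in Smc3 and 11.3 in WT and B cell markers 26.2 in Smc3 and 29.2 in WT, with 0 of 10 called by the authors' DESeq2 fit (0 at an unadjusted p under 0.05). Of the 5 mature granulocyte markers, which have no adjusted p, Mmp8 had a level of 117 in Smc3 and 186 in WT and Mmp9 one of 141 in Smc3 and 251 in WT, and the other 3 have no level per kilobase here. Stromal and endothelial markers with reads summed to 1236, 1147 and 668 normalized counts in Smc3 a, b and c against 440, 450 and 699.9 in WT a, b and c, and Pdgfrb, a receptor of stromal cells, was called higher (715, 744 and 542 in the Smc3 libraries, against 309, 335 and 442 in the WT libraries). By limma, the median over the 14 stromal and endothelial genes with reads was 0.76 with all libraries, 0.90 without Smc3 c and -0.19 with a sex term. The part of such cells in the genes called higher was not tested.

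**Figure D4:**
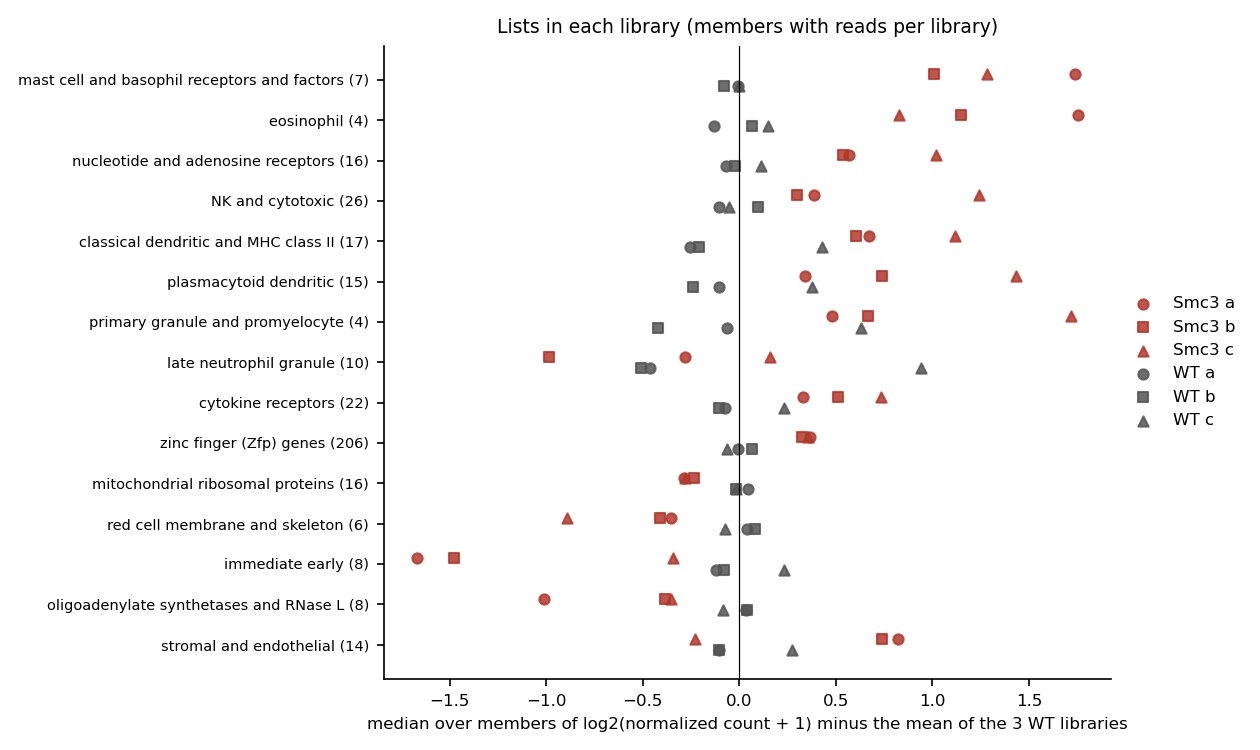
Median over list members with reads per library of log2(normalized count + 1) minus the mean of the 3 WT libraries (x axis), for Smc3 a, b and c (red) and WT a, b and c (grey), with member numbers in brackets. Mast cell, zinc finger and mitochondrial ribosomal lists keep the groups apart, while Smc3 c stands highest for NK and plasmacytoid genes, near WT for immediate early genes and below the other Smc3 libraries for stromal genes.

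The comparisons of Npm1 with WT (18.1% of genes called, 9.1% higher and 9% lower) and Double with WT (18.7% of genes called, 8.87% higher and 9.82% lower) use the WT libraries of the Smc3 comparison, so their values are only set side by side. Median log2 fold changes of mast cell and basophil mediators were 0.72 in Smc3, -0.54 in Npm1 and 0.36 in Double. Primary granule genes had 0.61 in Smc3, -0.48 in Npm1 and 0.46 in Double, and ribosome biogenesis genes -0.22 in Smc3, 0.26 in Npm1 and -0.04 in Double. HoxA genes had 0.17 in Smc3, 1.47 in Npm1 and 1.61 in Double. Globins were lower in median in each, at -0.75 in Smc3, -0.33 in Npm1 and -1.0 in Double.

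Among single genes, Cpa3 had 1.33 in Smc3, -0.48 in Npm1 and 0.85 in Double per the authors' deposited tables, and Alox15 had 1.38 in Smc3, -0.90 in Npm1 and 0.04 in Double. P2ry14 had 1.22 in Smc3, 0.02 in Npm1 and 1.01 in Double, and Kcnj2 had 1.34 in Smc3, -0.07 in Npm1 and 1.10 in Double, per the authors' deposited tables. Fads3, a fatty acid desaturase relative, had -0.87 in Smc3, 0.65 in Npm1 and -0.54 in Double, and Aldh1a7, an aldehyde dehydrogenase, had -0.86 in Smc3, 0.67 in Npm1 and -0.53 in Double, all from the authors' deposited tables. Differences between these comparisons were not tested.

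**Figure D5:**
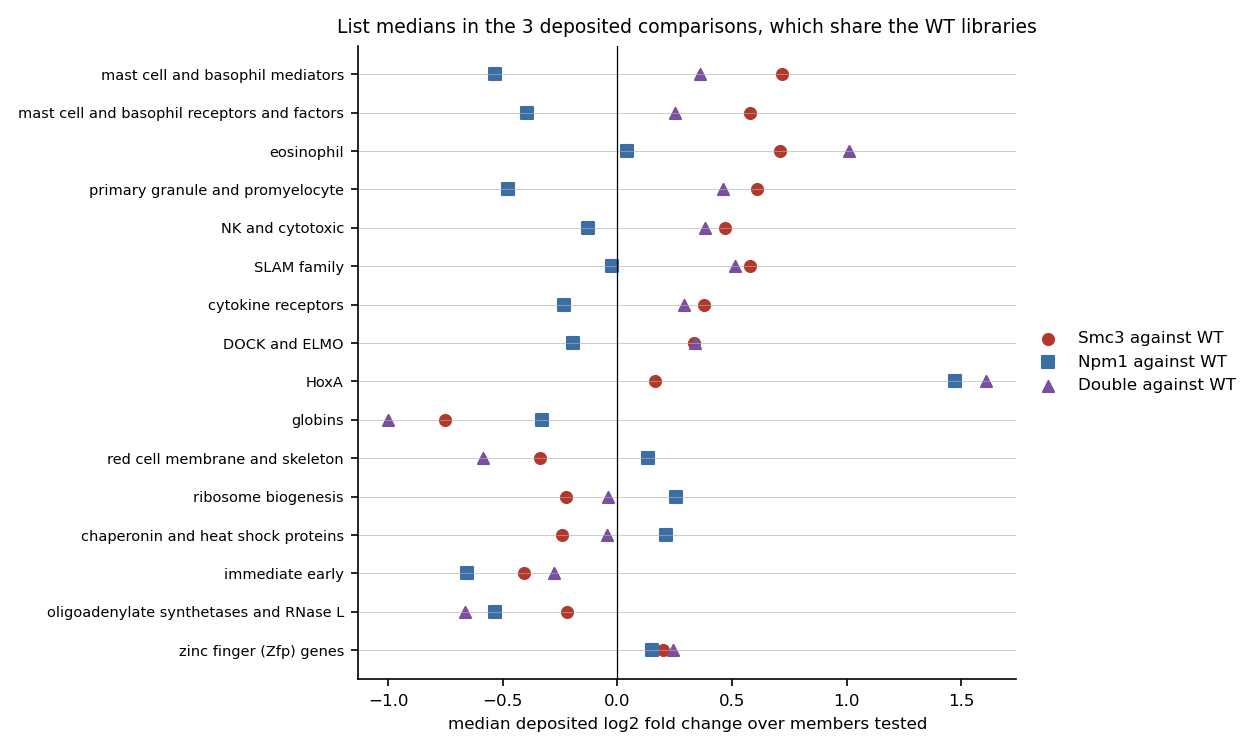
Median deposited log2 fold change over the tested members of 16 lists (x axis) for Smc3 (red circles), Npm1 (blue squares) and Double (purple triangles), each against the same 3 WT libraries. HoxA genes lie at 0.17 in Smc3 and above 1.4 in the other 2 comparisons, while mast cell and basophil lists lie above 0 in Smc3 and Double and below 0 in Npm1.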

How the data were processed

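RNA-seq was run on lineage-depleted mouse HSPCs with an unstranded poly(A) kit, per the labels' protocols. The authors used STAR, DESeq2 and the mm9 build, per the submitters' processing notes, which give no versions, and the read counter is not given in the sources used here. Per the file headers, the authors deposited for each comparison a mean normalized count per transcript (a signal: counts divided by size factors), log2 fold changes with SE, a Wald score, p-values and adjusted p-values. No table of counts per library was used here. The fold changes were found from their values to be moderated toward 0. Adjusted p is empty for low means. It is also empty for 27 genes that have a fold change but no p, among them Ltf, Camp, Ngp, Mmp8 and Mmp9.

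Each gene was represented by its transcript with the highest mean over the 3 deposited tables. Symbols turned into dates were restored for 53 transcripts. Whole reads per library were reconstructed, since each deposited mean is a sum of whole reads over size factors. Of the genes tried first, with means of up to 400, 99.17% could be solved, as could 0.916% of altered means. On simulated data for that pass 99.9% were solved, of which 100% were right. A second pass tried 2828 unsolved genes with means of up to 1000 and solved 1016, so reads above 400 are incomplete. On simulated data for the second pass 108 of 300 genes were solved, of which 100% were right. Letters a to c are not the labels' replicate numbers. Depth is the size factor times the summed implied mean of the group.

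No count model was refitted. limma 3.58.1 (voom, Benjamini-Hochberg adjustment) was applied to the reconstructed reads and was tested on simulated data. Tables were made with pandas 2.3.3 and numpy 2.4.6, and log2 values per library used a pseudocount of 1. Promoter sequences are RefSeq's on GRCm38.p6, matched by symbol, and coordinates of mm9 were not used. The letters TGACGTCA were searched as well. They were found for 2 of 29 immediate early genes with a window (6.9%) and for 3.28% of 9550 tested genes. Fosb, Nr4a2, Id3 and Maff had 0 matches in the 200 bases before the start. Named were the 25 called genes with the most positive and the 25 with the most negative change at a mean of at least 50, up to 6 genes per list with the smallest p, cohesin genes and list members of textbook importance. The members and lists were chosen with earlier results of these data known. Alternatives were other transcripts per gene, thresholds, filters, centring and a GC trend, and on the reconstructed reads limma with all libraries, with each left out and with a sex term.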

Additional observations from a re-analysis of the deposited data

How the results depend on the processing

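Against 1854 called genes (1012 higher, 842 lower), 793 (491 higher, 302 lower) were called at an adjusted p under 0.01 and 2832 (1455 higher, 1377 lower) at one under 0.1. Taking the transcript with the smallest p, adjusting over every gene with a p, keeping means of at least 50, centring on the median or removing a trend on GC content gave 1450 to 1898. The GC trend moved the balance to 894 higher and 975 lower, with 1634 genes shared, and turned the median log2 fold change of the 4 Y-linked genes to -0.018, where it was 0.08; the cause was not tested. The 50 genes with the largest changes remained called under each of these settings. This is no separate check, since they were picked as called genes and the settings reuse the same deposited values. No paired analysis was possible because the deposited tables carry no replicate numbers.

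The remaining alternatives were chosen after seeing the data. Of the 5912 tested genes with reads per library, the authors' fit called 754 (610 higher, 144 lower), limma called 79 (53 higher, 26 lower) and limma with a sex term 1014 (838 higher, 176 lower), of which 473 were among the 754. Leaving out 1 library gave 0 to 740 calls (0 to 544 higher, 0 to 196 lower), with 0 calls without each WT library. Leaving out Smc3 a, b or c, which also keeps a pair of libraries in that arm, gave 114, 110 and 740 calls. Of 126 named genes with reads, 38 stayed called by limma with all libraries and 88 with a sex term. In simulated reads for this comparison, limma called 96% of genes changed by a log2 of 1 and 21% of those changed by 0.5. Every simulated gene had the same spread beyond counting noise (dispersion 0.0211), and only genes with a mean of at least 50 were changed. No sex difference or library standing apart was simulated, so these shares may not hold in the real reads. The 13 late neutrophil genes without an adjusted p have no call in the authors' table.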
